A study of Mus musculus with 8 samples.

Results

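Across the mouse autosomes, 1272 windows of 5 kb carried H3K9me3 before *Setdb1* deletion, with the Upstate-type antibody and in the pooled libraries of 2 Abcam lots, and had fallen by 1.5-fold or more by day 2 with the Upstate-type antibody, the only one followed over time. They were chosen from 474385 windows with a tag in any of 8 libraries. A base of 4018 windows had 2 or more times the median *T* = 0 tag number of the pooled Abcam lots, and 3 or more times that of the Upstate-type antibody. The 1272 windows are those of the base in which the Upstate-type tags of *T* = 2d and of *T* = 6d were both at or below the *T* = 0 tags divided by 1.5. They make up 31.7% of the base, 0.268% of all windows and 6.36 Mb. The members were therefore selected on the *T* = 0, *T* = 2d and *T* = 6d tags of the Upstate-type antibody and on the *T* = 0 tags of the Abcam lots, and these values are given as a description. The *T* = 4d library and the Abcam *T* = 6d libraries took no part in the choice.

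Setdb1 (ESET) is a histone methyltransferase that trimethylates lysine 9 of histone H3. It is brought to chromatin by Trim28 (Kap1) and KRAB zinc finger proteins, and in ES cells it is known for silencing endogenous retroviruses and a set of genes. Other methyltransferases, such as Suv39h1 and Suv39h2, place H3K9me3 as well, mostly in pericentric repeats, so that loss of Setdb1 need not remove the mark everywhere. H3K9me3 is diluted by DNA replication and can be removed by demethylases, and a level measured after depletion therefore follows both earlier deposition and later loss.

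The cells were JM8 ES cells (C57BL/6N background) with a conditional *tm1c* and a null *tm2* allele of *Setdb1* and CreERT2 in *Rosa26*, called *tm1c/tm2* before and *tm1d/tm2* after treatment. The sample labels use *tm1a/tm2* and *tm1c/tm2* for the same states. 4′OHT, the ligand that activates CreERT2, was present from *T* = 0 for 48 h. The Upstate-type antibody was used on chromatin of *T* = 0, 2d, 4d and 6d, and lots 58206 and 638466 of an Abcam antibody on *T* = 0 and *T* = 6d. Every library comes from 1 line and there was 1 library per antibody and time. The lots are preparations of an antibody and not separate cultures, so that tests compare libraries and cover counting error. Control cells (*tm1c/+*) were not analysed here, and an effect of 4′OHT or of time in culture cannot be told apart from that of the deletion. The deposited libraries hold 6887819 tags per Upstate-type library, 8503927 per library of lot 58206 and 12194174 per library of lot 638466. The median window held 9 to 10 tags in the Upstate-type libraries, 16 in those of lot 58206 and 25 in those of lot 638466.

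The remaining base windows gave the comparison classes. In 1315 windows only *T* = 6d had fallen by the same limit (lost after day 2), in 1385 neither time point had (kept), and in 46 only *T* = 2d had. Before treatment the members had a median of 44 Upstate-type tags, against 48 in windows lost after day 2 and 56 in kept windows. In the members the *T* = 0 median of 44 tags was followed by 21 tags on day 2, 11 on day 4 and 9 on day 6. Single members held between 30 and 865 tags at *T* = 0, between 3 and 382 on day 2, between 0 and 120 on day 4 and between 1 and 130 on day 6. The ranges of the time points thus overlapped, while the middle of the distribution shifted at each step. Windows lost after day 2 went through 48, 45, 26 and 18 tags, and kept windows through 56, 68, 60 and 56. Counted as excess over the library median, the members kept 35.3% of their median *T* = 0 excess on day 2 and 2.94% on day 4. Within the limit of 1.5-fold the fall at *T* = 2d varied: the ratio to *T* = 0 had a median of 0.5 and a lowest value of 0.0938, and 642 members (50.5%) were at or below 0.5 of their *T* = 0 tags.

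**Figure D1:**
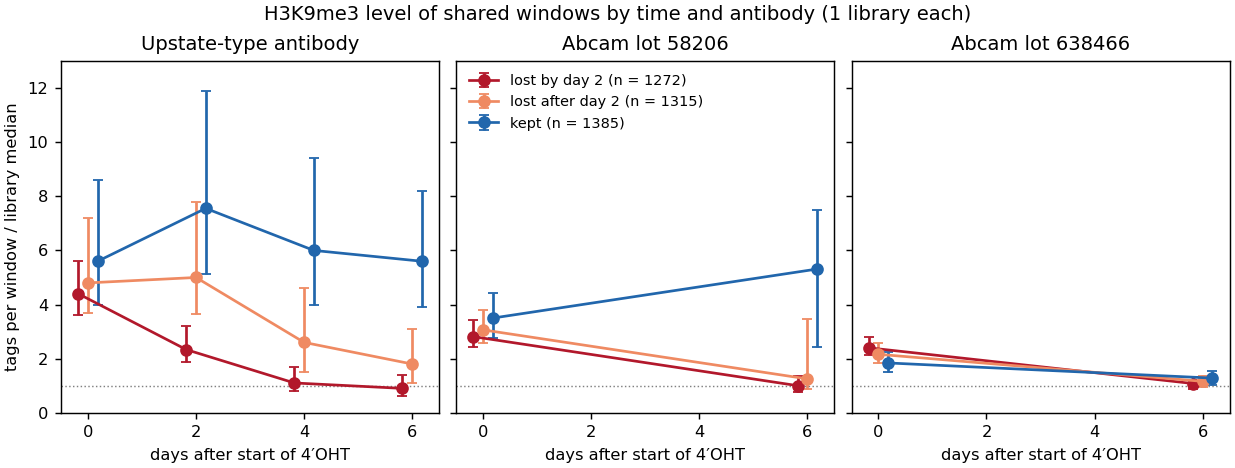
Tags per window divided by the median of the same library (y axis) against days after the start of 4′OHT (x axis), 1 panel per antibody preparation. Points are medians over windows and bars the interquartile range of the windows, not replicate error, with windows lost by day 2 in red, lost after day 2 in orange and kept in blue, and the dotted line marks the library median. Members reached 1.1 times the Upstate-type median at *T* = 4d, while kept windows stayed at 6 times.

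The *T* = 4d library, which the choice of members did not use, placed them close to the level of the median window. Their median was 1.1 times the library median, against 2.6 times in windows lost after day 2 and 6 times in kept windows. In all, 571 members (44.9%) were at or below the library median, compared with 153 windows lost after day 2 (11.6%) and 0 kept windows, or 724 of the 4018 base windows and 55.2% of all windows. At least 3 times the median was left in 91 members (7.15%), in 44.4% of windows lost after day 2 and in 90.4% of kept windows, or 48.6% of the base and 7.85% of all windows. At or below the *T* = 0 tags divided by 1.5 were 1248 members (98.1%), and the same held for 56.1% of the base and 24.4% of all windows. This ratio shares its *T* = 0 library with the choice of members and is a description. From day 2 to day 4 the tags were lower in 1139 members (89.5%). The same held for 95.2% of windows lost after day 2, 75.2% of kept windows, 85.9% of the base and 40.9% of all windows. From day 4 to day 6 they were lower in 805 members (63.3%). This compares with 80.2% of windows lost after day 2, 65.1% of kept windows, 68.8% of the base and 45.3% of all windows. The *T* = 2d and *T* = 6d tags had set the classes, so the shares of both steps are a description. All 3 steps went down in 689 members (54.2%), against 45.9% of windows lost after day 2, 33.2% of the base and 4.19% of all windows, where the fall to day 2 was part of the choice.

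The Abcam lots asked whether the members were also lower at *T* = 6d with other antibody preparations. They were lower with both. With lot 58206 the members went from a median of 45 tags at *T* = 0 to 16 at *T* = 6d, and with lot 638466 from 60 to 27. The libraries' own medians are 16 and 25 tags, so that the median member ended at or near the level of the median window in both lots. Single members ranged from 23 to 2138 tags at *T* = 0 and from 1 to 1183 at *T* = 6d with lot 58206, and from 29 to 2637 and from 4 to 711 with lot 638466. As a log2 ratio of day 6 to day 0, the members' median was −1.46 with lot 58206 (interquartile range −1.95 to −0.96) and −1.19 with lot 638466 (−1.56 to −0.82). Over all windows these medians were 0 and 0.04. Of the members, 1189 (93.5%) were below *T* = 0 in both lots and 0 were above it in both. The share below in both was 74.4% in windows lost after day 2, 25.8% in kept windows and 24.8% in all windows.

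When the tags of a window were set against the rest of the library (Fisher's exact test, two-sided, *P* below 0.01 and a change over 1.5-fold), 912 members (71.7%) were lower at *T* = 6d with lot 58206. The same call covered 43.6% of the base and 2.06% of all windows. With lot 638466, 938 members (73.7%) were lower, against 47.6% of the base and 2.03% of all windows. Both lots called 732 members (57.5%), against 39.3% of windows lost after day 2, 33.1% of the base and 0.532% of all windows, and neither called 154 members (12.1%). Windows lost after day 2 were lower in 53.0% and 54.1%, and kept windows in 9.31% and 17.5%. Higher at *T* = 6d were 16 members with lot 58206 (1.26%, against 17.4% of the base and 1.82% of all windows). With lot 638466, 0 members were higher, which allows a share of up to 0.236% (3 windows of the total, covering counting error only). In that lot 0% of the base and 1.14% of all windows were higher.

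Because the *T* = 0 tags of both lots had entered the choice of the base, the members were also chosen with 1 lot and read in the other. With the base set on lot 58206, 1608 windows qualified and went from a median of 55 tags to 26 in lot 638466 (log2 ratio −1.09). Of these, 63.1% were called lower, against 33.7% of their base, 40.1% of its windows lost after day 2 and 10.4% of its kept windows. With the base set on lot 638466, 1175 windows went from 44 tags to 16 in lot 58206 (log2 ratio −1.43), and 68.2% were called lower. The call covered 47.2% of their base, 55.0% of its windows lost after day 2 and 13.2% of its kept windows. The fall with an Abcam lot was therefore also measured where that lot had not chosen the windows.

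A limma fit of log2 RPM (tags scaled to library size) over both lots, with the lot as a term, called 640 members lower (50.3%, Benjamini-Hochberg adjusted *P* below 0.05 and a change over 1.5-fold). It called 29.3% of the base, 0.964% of all windows with an Abcam tag, 34.4% of windows lost after day 2 and 5.56% of kept windows. No member was among the 456 windows called higher. The fit has 1 residual degree of freedom per window and rests on sharing the spread across windows. Without the robust option of limma's variance step, 0 windows passed in either direction, while 1080 members (84.9%) were lower at an unadjusted *P* below 0.05 with the fold limit, against 52.5% of the base and 5.09% of all windows with an Abcam tag. The robust option was chosen after the ordinary one had made no calls. For a single value, 2 lots can reach no exact *P* below 0.5.

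**Figure D2:**
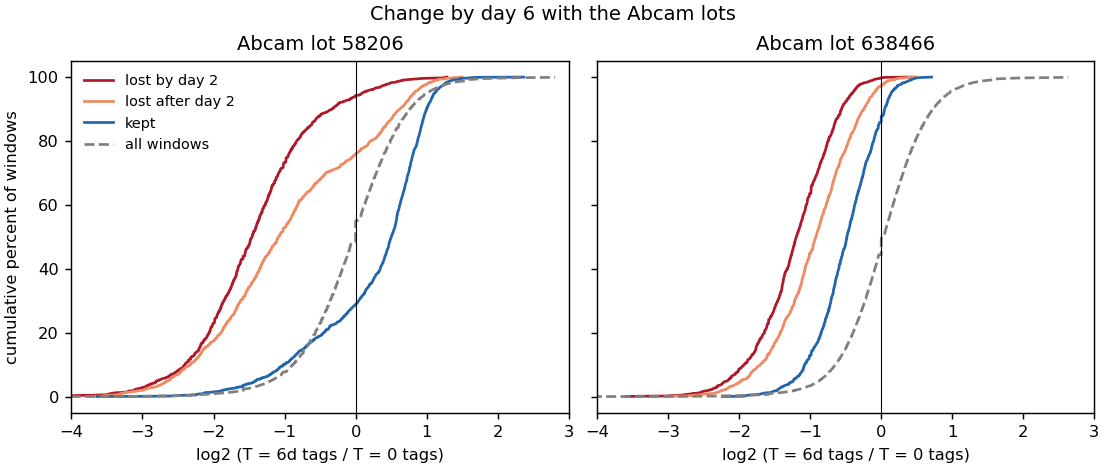
Cumulative percent of windows (y axis) at or below a given log2 ratio of *T* = 6d to *T* = 0 tags (x axis), with a pseudocount of 0.5 tags, for each Abcam lot. Members (red) have medians of −1.46 and −1.19 and lie left of windows lost after day 2 (orange), kept windows (blue) and all windows (dashed grey) in both panels through the middle of the distributions.

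The lots gave different values for the classes that the members were set against. Kept windows had a median log2 ratio of 0.50 with lot 58206 and −0.49 with lot 638466, so that the members lay 1.96 below them with the first lot and 0.71 with the other, as differences of log2 medians. Against windows lost after day 2 the members were lower by 0.37 and 0.28. These differences were not tested, since windows of 1 library are not replicates. Across the members, the log2 ratios of both lots correlated with Pearson's r = 0.42 and Spearman's rho = 0.41 (n = 1272 windows, which share the 4 libraries and the choice on *T* = 0).

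How far a member had fallen at day 2 went with little difference in the Abcam ratios at day 6, where the members were near background. The 147 members at or below 1/3 of their *T* = 0 tags at *T* = 2d had median log2 ratios of −1.46 with lot 58206 and −1.25 with lot 638466. The 495 members between 1/3 and 1/2 had −1.49 and −1.22, and the 630 between 1/2 and 1/1.5 had −1.43 and −1.14. Each of these groups had *T* = 6d medians of 16 tags with lot 58206 and 27 with lot 638466. The library medians are 16 and 25, so the ratios had little room to differ. At *T* = 4d, which the choice did not use, the groups' Upstate-type medians were 8, 10 and 14 tags, from 41, 43 and 45 at *T* = 0. Across all members the *T* = 2d ratio and the pooled Abcam ratio had r = 0.03 and rho = 0.05 (n = 1272 windows of the same libraries). The limit of 1.5-fold marked no step in these ratios either. The 281 members just inside it (0.6 to 1/1.5 of *T* = 0) had −1.37 and −1.15, and the 288 windows just outside it (above 1/1.5 to 0.75, with *T* = 6d fallen) had −1.39 and −1.09. With *T* = 2d further up the Abcam fall was smaller, −1.18 and −0.99 in 621 windows between 0.75 and 1, and −0.25 and −0.68 in 406 windows that were above *T* = 0 at *T* = 2d.

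**Figure D3:**
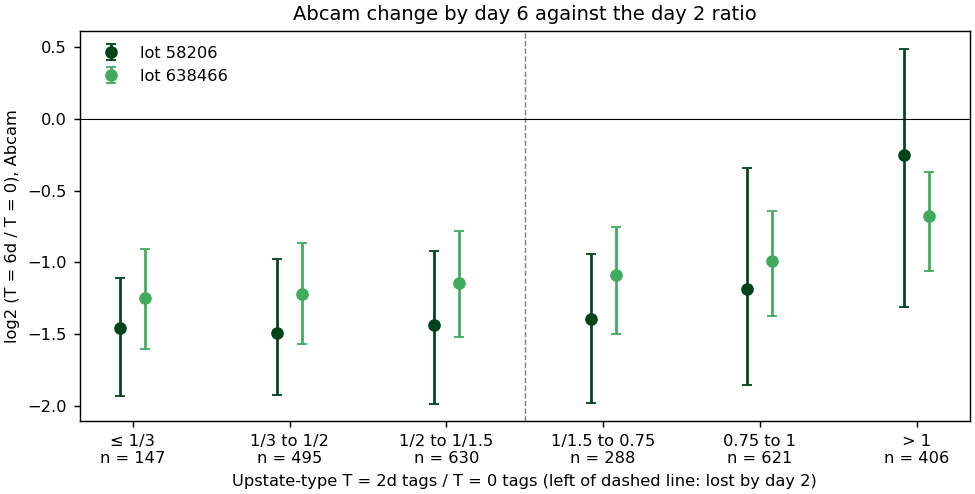
Median log2 change from *T* = 0 to *T* = 6d with each Abcam lot (y axis, bars the interquartile range of windows) for windows grouped by the Upstate-type *T* = 2d to *T* = 0 ratio (x axis), with *T* = 6d fallen in all groups. The 3 groups left of the dashed line are the members, and the group just right of it lies at −1.39 and −1.09, next to their values of −1.43 and −1.14.

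The starting level went with the size of the later Abcam ratio, while the day 6 tags were close at every level. Members were split at 3 to 4, 4 to 6, 6 to 10 and 10 or more times the Upstate-type median at *T* = 0. Their *T* = 6d medians were 17, 15, 16 and 16 tags with lot 58206 and 29, 26, 26 and 29 with lot 638466. From the lowest to the highest level, *T* = 0 medians went from 40 to 93.5 and from 56 to 102.5. The 474 members at 3 to 4 times the Upstate-type median at *T* = 0 had median log2 ratios of −1.17 with lot 58206 and −0.95 with lot 638466, and the Fisher's exact test called 55.5% and 57.8% of them. The 66 members at 10 times the median or more had −2.39 and −1.84, and 93.9% and 98.5% were called. More tags in a window give Fisher's exact test more power, and the ratio has a floor at background, so the 2 sets of shares are not on equal terms. The limma fit called 40.1%, 57.0%, 58.0% and 47.0% of the members from the lowest to the highest level, so its calls did not rise throughout. Within each level, the members' median log2 ratios were below those of windows lost after day 2. The latter had −0.79 and −0.78 at the lowest level and −1.82 and −1.35 at the highest. The levels match Upstate-type tags only, and with lot 638466 the members started higher at every level. At the lowest level they went from 56 to 29 tags, against 51 to 29, and at the highest from 102.5 to 29, against 73.5 to 30. With lot 58206 they went from 40 to 17, against 46 to 24, and from 93.5 to 16, against 66.5 to 18.

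The Upstate-type signal around the members was lower than around the other classes. A mean profile was centred on the 500-bp bin with the most *T* = 0 Abcam tags in each window, leaving out the window with the most tags at *T* = 0 (n = 1271). The centre bin held 9.10 Upstate-type tags before treatment, and 4.15, 1.78 and 1.51 on days 2, 4 and 6. Bins 2 to 4 kb away held 3.17, 2.10, 1.47 and 1.23. At *T* = 2d the centre was thus at 0.457 of its *T* = 0 level, the bins 2 to 4 kb away at 0.664 and the edge of the profile, up to 10 kb away, at 0.871. With lot 58206 the centre had 10.3 tags at *T* = 0 and 3.26 at *T* = 6d, with lot 638466 it had 12.9 and 3.57, but the centre bin was picked on these *T* = 0 tags. Windows lost after day 2 had 9.02 Upstate-type tags in the centre at *T* = 0 and more tags 2 to 4 kb away (4.93), although the width at 0.5 of the peak height was 1.5 kb in both classes. With the Abcam lots the *T* = 0 tags 2 to 4 kb away were close in both, at 3.31 and 3.32 with lot 58206 and at 4.43 and 4.31 with lot 638466. Kept windows had more Upstate-type tags 2 to 4 kb away (7.05) than in the centre (6.51).

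**Figure D4:**
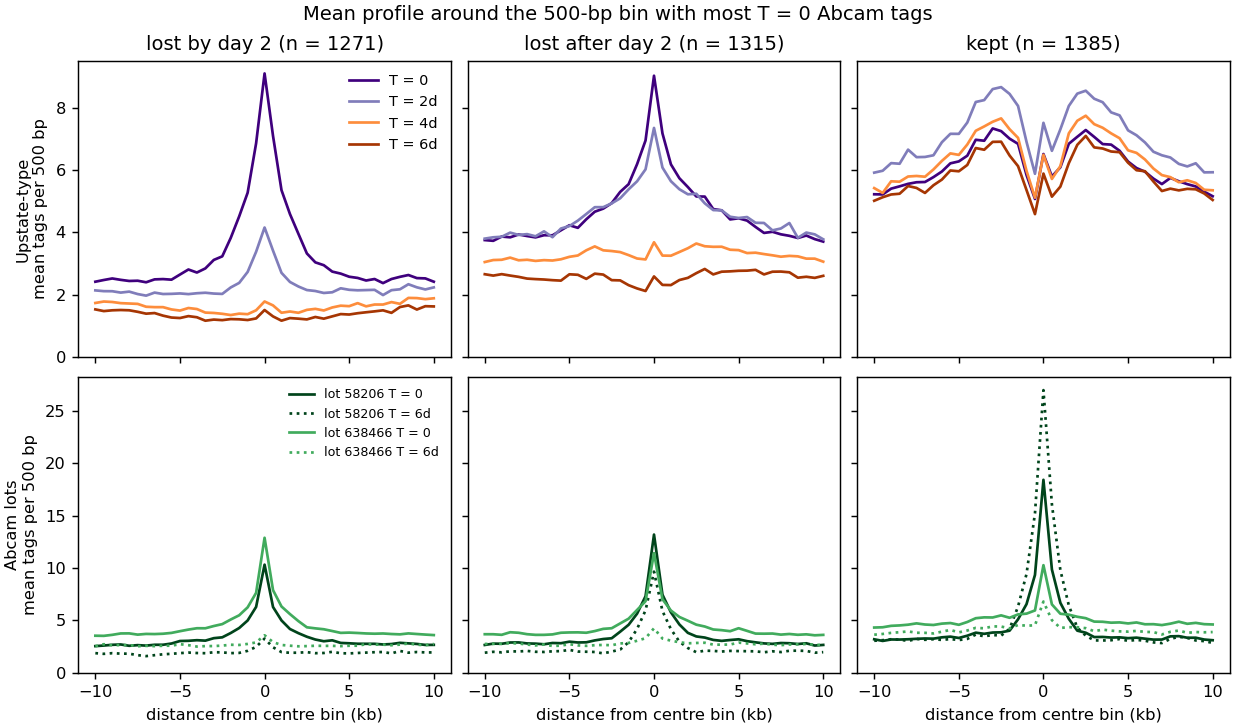
Mean tags per 500-bp bin (y axis) against distance from the centre bin (x axis, kb) for the Upstate-type antibody by time (top) and both Abcam lots at *T* = 0 and *T* = 6d (bottom), for members, windows lost after day 2 and kept windows. The Upstate-type peak of the members falls from 9.10 to 4.15 tags by *T* = 2d, and kept windows show broad Upstate-type signal on both sides of the centre at every time.

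The neighbouring windows held different Upstate-type levels in the 3 classes and close Abcam levels at *T* = 0. Windows next to a member on the 5-kb grid held a median of 19 Upstate-type tags at *T* = 0, 1.9 times the library median, compared with 2.9 times beside windows lost after day 2 and 4.6 times beside kept windows. These neighbours of members were at 1.56, 1 and 0.9 times on days 2, 4 and 6, whereas neighbours of kept windows stayed between 4.6 and 5.56 times. With the Abcam lots the neighbours of the 3 classes were alike at *T* = 0, at 1.4 to 1.56 times the median. Of the windows outside the base that touched a member, 2059 in all, 9.66% passed the limma limits, against 0.964% of all windows with an Abcam tag. Median Upstate-type tags of these 2059 windows were 16, 12, 10 and 8 over the 4 time points. Joining members that touched gave 1148 regions, of which 1045 were single windows, 86 were pairs and 17 were longer. In 1072 regions the summed tags of both lots were below *T* = 0, and 587 regions held a window past the limma limits. Joined regions of other classes are not given, so these counts are a description. Counted by window, 63.4% of the base and 24.8% of all windows were below *T* = 0 in both lots. The limma limits were passed by 29.3% of the base. Another member lay within 50 kb of 34.5% of members, compared with 36.9% for windows lost after day 2 and 39.4% for kept windows within their own classes.

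Members were found on every autosome. Their share of the base was lowest on chromosomes 8 (87 of 442 base windows, 19.7%) and 19 (19.8%), and highest on chromosomes 10 (41.4%) and 13 (42.1%). Chromosome 8 held the most kept windows (217). The densest megabase was 37 to 38 Mb of chromosome 6, with 14 members among 23 base windows. These 14 members together held 851, 463, 316 and 187 Upstate-type tags over the 4 time points, dropped to 323 from 779 with lot 58206 and to 380 from 962 with lot 638466, and 7 of them passed the limma limits. On chromosome 11, 22 to 23 Mb held 10 members of 14 base windows, and 20 to 21 Mb held 9 of 13.

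The regions with the largest mean fall in the limma fit ended below the library median in lot 58206 (all coordinates in mm9). The window chr4:155550001-155555000 had 182, 88, 77 and 73 Upstate-type tags over the 4 time points. It went from 162 to 10 tags in lot 58206 and from 125 to 26 in lot 638466, and had a log2 change of −2.79 ± 0.64 (SE, limma, adjusted *P* = 0.00443). Its Upstate-type signal levelled off well above the library median of 10, while both Abcam lots fell to about their own medians or below. The window chr5:106150001-106155000 had 145, 78, 51 and 39 Upstate-type tags and went from 91 to 4 and from 101 to 22 with the lots (log2 change −2.73, limma, adjusted *P* = 1.47e-12). The pair of windows at chr8:23660001-23670000 had 172, 103, 63 and 28 tags and went from 125 to 10 and from 120 to 17 (mean log2 change −2.55). That pair lost Upstate-type tags at every step. The window chr13:114355001-114360000 had reached its lowest level by day 4, with 58, 17, 4 and 4 Upstate-type tags, 67 to 6 with lot 58206 and 76 to 15 with lot 638466 (log2 change −2.38). The window chr7:146610001-146615000 had 58, 35, 17 and 14 tags, and went from 59 to 5 and from 61 to 11 (log2 change −2.37).

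The longest region, chr10:84510001-84540000, joined 6 members. Its summed Upstate-type tags were 280, 111, 48 and 49, and the lots gave 285 and 88 tags (58206) and 361 and 178 tags (638466) at *T* = 0 and *T* = 6d. All 6 windows were lower in both lots, and 3 passed the limma limits. The region chr13:51180001-51200000 joined 4 members with 313, 156, 77 and 52 Upstate-type tags, 325 to 194 with lot 58206 and 340 to 104 with lot 638466. Its last window went against the rest in lot 58206, where it rose from 92 to 132 tags, and fell from 78 to 33 in lot 638466. Of the 15 regions of 3 joined members, chr10:82835001-82850000 was named because it held the most *T* = 0 Upstate-type tags. Its 3 members had 507, 309, 255 and 167 Upstate-type tags, 373 to 53 with lot 58206 and 415 to 98 with lot 638466. At *T* = 6d they still held 42 to 63 Upstate-type tags each, several times the library median.

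The members with the most tags at *T* = 0 lay together at chr17:39980001-39990000, where the mm9 assembly holds a copy of the ribosomal RNA unit. Tags there come from a sequence that the genome carries in many copies. The 2 windows held 1003, 436, 96 and 152 Upstate-type tags, and dropped to 1468 from 2519 with lot 58206 and to 839 from 3076 with lot 638466. They did not pass in the limma fit, with a mean log2 change of −1.22 and a mean SE of 27.1 (smallest adjusted *P* = 0.98). The ratios of *T* = 6d to *T* = 0 tags were 0.583 with lot 58206 and 0.273 with lot 638466. The SE thus reflects the spread that limma shares across windows and not the difference between the lots.

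At loci that the study displayed, members were found at *H19* and *Cdh3*. The windows are those of the displayed stretches, named after the gene, and their position relative to the gene was not read. One of 2 windows at *H19*, an imprinted gene for a non-coding RNA, was a member (the 5-kb window of chromosome 7 that starts at 149765001), with 49, 26, 18 and 13 Upstate-type tags. It went from 63 to 20 with lot 58206 (Fisher's exact test, *P* = 2.43e-06) and from 102 to 36 with lot 638466 (Fisher's exact test, *P* = 1.69e-08). It did not pass in limma (log2 change −1.42, SE 0.565, adjusted *P* = 0.267). Of 13 windows at *Cdh3*, the gene for P-cadherin, 3 were members. The one at chr8:109020001-109025000 had 37, 19, 2 and 5 Upstate-type tags, went from 59 to 14 and from 58 to 13 with the lots, and passed in limma (adjusted *P* = 7.49e-08). The window next to it had 32, 17, 12 and 5 tags and went from 53 to 14 and from 62 to 35, and did not pass in limma (adjusted *P* = 0.0748). The third *Cdh3* member had 30, 9, 9 and 7 tags, with 45 to 20 and 55 to 36. It did not pass in limma (adjusted *P* = 0.406) and was not called with lot 638466 (Fisher's exact test, *P* = 0.0586). None of 5 windows at *Olfr901*, an olfactory receptor gene, was a member, and 1 was lost after day 2. The other 4 were outside the base. One of them had 48, 17, 22 and 1 Upstate-type tags and so met the limits of the fall, but its 63 pooled Abcam tags at *T* = 0 were below the limit of the base. A further 2 of these 4 passed in limma (adjusted *P* = 0.00426 and 0.000187), with 35 and 44 Upstate-type tags at *T* = 0, 32 and 31 on day 2, and 10 and 6 on day 6. The control region of the study, on chromosome 4, was a kept window with 90, 88, 68 and 62 Upstate-type tags, 77 to 72 with lot 58206 and 91 to 100 with lot 638466.

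**Figure D5:**
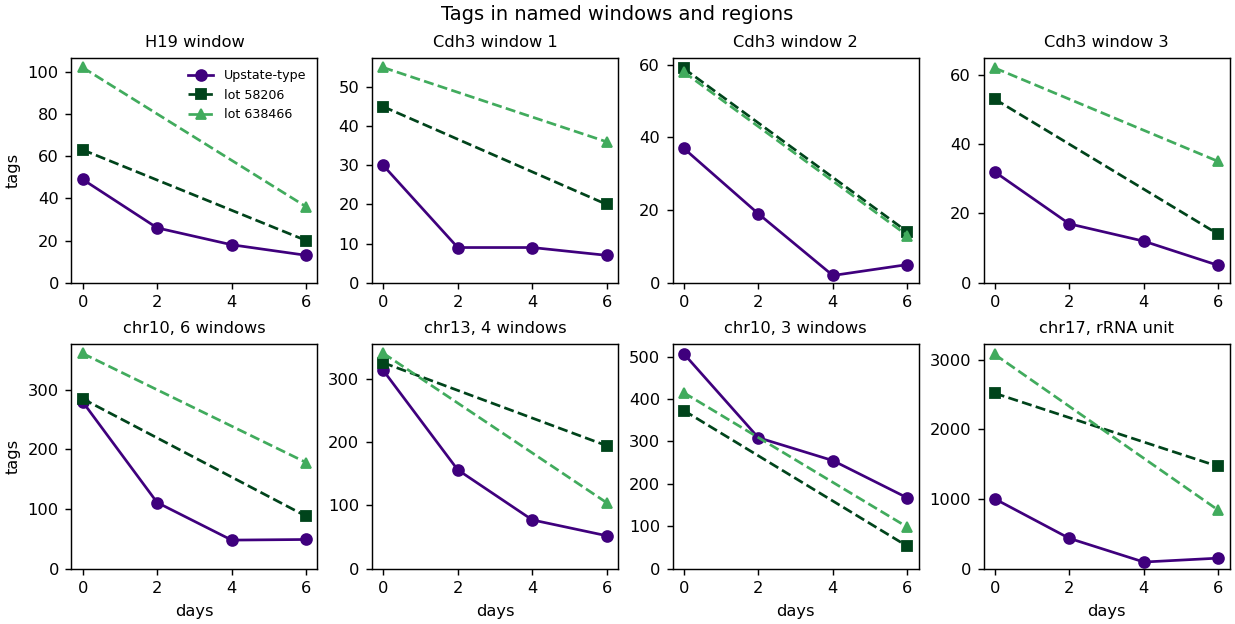
Tags (y axis, separate scale per panel, starting at 0) against days after the start of 4′OHT (x axis). Panels show the member windows at *H19* and *Cdh3* (in order along the chromosome), the 3 longest regions and the ribosomal RNA unit on chromosome 17. Regions of equal length were ranked by *T* = 0 Upstate-type tags. Each point is 1 library, Upstate-type in purple and the Abcam lots in green, and dashed lines only join the *T* = 0 and *T* = 6d libraries of a lot. All 8 panels are lower at *T* = 6d than at *T* = 0 in every antibody, which the choice of members required for the Upstate-type antibody.

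Uniquely mapped tags leave stretches without coverage in repeats. Stretches of 1.5 to 4 kb without a tag touched 40 members (3.14%), 2.13% of windows lost after day 2, 0.0722% of kept windows and 3.18% of all windows. Stretches of 4 to 9 kb touched 34 members (2.67%), compared with 1.06%, 0.217% and 2.26%. Covered in full were 78.7% of members, 84.9% of windows lost after day 2, 93.2% of kept windows and 60.1% of all windows, all counted over the pooled libraries. The tag level differed between the classes at the later times, and its part in these shares was not tested. Gene and repeat annotation in mm9 was not used here, so the members are given by position and not by the genes or repeats they overlap.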

How the data were processed

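The authors mapped tags uniquely to the mouse genome, brought the libraries of each antibody to 1 number of tags, lengthened each tag to 300 bp, and deposited these intervals (mm9) without values per region. The aligner is not given in the sources used here. How tags were picked for equal depth is not given in the sources used here, and a global change in H3K9me3 would not show at equal depth. Input libraries were not analysed here, and 0 per-sample columns were left unused.

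Tags were placed by interval midpoint into 5-kb windows of chromosomes 1 to 19 in Python 3.11.15 (scipy 1.17.1, numpy 2.4.6, pandas 2.3.3). The members and the lists of loci were chosen with earlier results of these data known. Abcam *T* = 6d and *T* = 0 tags were compared per lot by Fisher's exact test (two-sided, tags of a window against the rest of the library), and over both lots with limma 3.58.1 in R 4.3.3 (lmFit, eBayes with trend and robust) on log2(RPM + 0.5), with RPM computed from the deposited tags, with the lot as a term, over 473919 windows with an Abcam tag. The robust option and the limit to windows with an Abcam tag were set after the ordinary option made no calls, also on simulated data with lowered windows. Log2 ratios had a pseudocount of 0.5 tags. The lot numbers mark the antibody preparation: same-lot libraries deviated together from the mean of their time point (r = 0.765 over the base and 0.233 over all windows, 2 pairs).

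Regions named were the 5 with the largest mean limma fall among those past the threshold and lower with both lots. Also named were the 3 with the most joined windows, with ties settled by the most *T* = 0 Upstate-type tags. Members at the loci the study displayed, and the 3 members with the largest rise of pooled Abcam tags, were named too. The region with the most *T* = 0 tags and the densest megabases were chosen after their values were seen. Alternatives were other window sizes, limits, scalings, pseudocounts and filters, a base set on 1 lot, and leaving out each lot. Figures were drawn with matplotlib 3.10.9. The limma call and the Fisher's exact test call of 1 Abcam lot were tested on simulated Abcam tags.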

Additional observations from a re-analysis of the deposited data

Results flagged for a closer look

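In 72 members the tags were above *T* = 0 with lot 58206 and below it with lot 638466, and in 3 members the reverse held. Of the 72, 16 were called higher at *T* = 6d with lot 58206 by Fisher's exact test. Medians below are over these 16. They went from 55 tags at *T* = 0 to 109.5 at *T* = 6d with lot 58206, and from 44 to 26 with lot 638466, where 4 were called lower. The Upstate-type medians were 35.5, 18, 15 and 13.5 over the 4 time points, and 15 of the 16 were below *T* = 0 at *T* = 4d. The difference between the lots was not tested.

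The 3 members with the largest rise of pooled Abcam tags were of this kind. The window chr6:136465001-136470000 went from 46 to 110 tags with lot 58206 and from 50 to 40 with lot 638466, with 36, 23, 22 and 14 Upstate-type tags. The window chr16:31945001-31950000 went from 72 to 135 and from 36 to 33, and chr4:48695001-48700000 from 56 to 137 and from 61 to 41.

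Chromosome X was outside the choice of windows. Of its 30776 windows 19 met the limits of the base and 4 those of the members. These 4 had median Upstate-type tags of 43.5, 20, 9 and 7, and median log2 ratios of −1.51 with lot 58206 and −0.90 with lot 638466.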

How the results depend on the processing

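Of 69 alternative values, 36 moved and 0 reversed. A number of members counted as moved beyond 1.5 times, a share or *T* = 4d level beyond its 95% interval over windows, and a log2 median beyond 1 SD of the 2 lots. The last limit is wide, so that members minus kept windows did not count as moved although it was −0.74 with windows of 2 kb and −0.73 with the base on lot 58206, against −1.46 as reported. Windows of 2 kb gave 5456 members, of which 39.4% were lower with lot 58206, 40.4% with lot 638466 and 24.1% in limma, at a *T* = 4d level of 1 times the median. Windows of 10 kb gave 332 members, with 84.9%, 93.7% and 56.6% lower. A 2-fold fall gave 623 members, with 74.3%, 77.5% and 54.1% lower and a *T* = 4d level of 0.9. An Abcam limit of 3 times the median gave 281 members with a pooled log2 ratio of −1.65, 84.7%, 97.5% and 43.1% lower, and a *T* = 4d level of 1.4. An Upstate-type limit of 5 times gave 443 members, −1.59, 87.6%, 89.8%, 57.3% and 1.6. Scaling to background windows gave 76.8%, 84.8% and 59.4% lower. The Benjamini-Hochberg call in place of *P* below 0.01 gave 54.4% with lot 58206 and 49.0% with lot 638466. The 2-fold fall and the limits of 3 and 5 times changed the members and not the calls. Shares called thus stayed at 2.06% and 2.03% of all windows, and in limma at 0.964% of those with an Abcam tag. For the other window sizes, the scaling and the Benjamini-Hochberg call, no shares of other windows are given. Larger windows and higher limits hold more tags, which gives Fisher's exact test more power. A base set on 1 lot gave 63.1% lower in lot 638466 and 68.2% in lot 58206. The limma count was the least stable value. It was 23.2% with no replicate block (without the lot pairing as a term). A filter kept windows that averaged 2 or more times the median over *T* = 0 and *T* = 6d of both lots. Being low at *T* = 6d thus counted against a window, and 811 members were left out. Of the 461 members kept, 2 were called (0.434%, or 0.157% of all members), and 6 of all 11889 windows kept. The limma count was 0% with the ordinary option of limma's variance step, which was run first. The robust option was chosen after seeing the data. Leaving out each lot gave a pooled log2 ratio from −1.46 to −1.19, and members minus kept windows from −1.96 to −0.71, so that this difference rests in size on lot 58206. Between 9 and 25 tags in the median window limit what a single window can show, and 1 library per antibody and time leaves no replicate error.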
